A study of Homo sapiens with 8 samples.

Results

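The regions described here are the 722 distinct p63 regions on chromosome 9, of 15267 distinct regions listed on all chromosomes in 2 human squamous cell carcinoma lines, CAL27 and SCC13. A region was taken when its row in either line's deposited list named chromosome 9, and it was placed on the short arm (9p) when its midpoint lay below position 49000000 of the hg19 build, and on the long arm (9q) otherwise. Members were thus chosen by presence in a p63 list and by position, and the run of CAL27-only regions on 9q described below was selected on its length. By this rule 156 regions lay on 9p and 566 on 9q. Chromatin immunoprecipitation and sequencing (ChIP-seq) was carried out with a p63 antibody in 2 replicates of each line, and 2 further samples of each line were titled none, giving 8 samples in 4 groups. All 8 samples had the genotype WT and the treatment None. CAL27 was grown with 10% FBS, and SCC13 in Keratinocyte-SFM with BPE at 25 ug/ml, EGF at 0.2 ng/ml and 0.3 mM CaCl2, so the lines also differed in medium. Each line derives from a single tumour, and its list stands for both p63 replicates together. No spread between replicates, region height or sequencing depth could therefore be given.

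The transcription factor p63, encoded by TP63, is the master regulator of the basal layer of stratified epithelia such as epidermis and oral mucosa. It binds DNA as a tetramer at a palindromic response element resembling that of p53, mostly in enhancers away from gene starts, and it keeps such enhancers open in keratinocytes and in squamous carcinomas. Chromosome 9 carries several genes known in this tissue, among them CDKN2A and CDKN2B, the cell-cycle inhibitor genes of band 9p21.3, PTCH1, the Hedgehog receptor gene of 9q22.32, KLF4, a differentiation factor gene of 9q31.2, and NOTCH1, the Notch receptor gene of 9q34.3. Genes are named here by band, as background. No region was assigned to a gene, exon or intron, since no hg19 annotation was used here.

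A region listed in both lines is called shared, and a region listed in 1 line is called CAL27-only or SCC13-only. All 4448 shared regions of the genome had the same start and end in each list. A shared region therefore has a single width, which does not measure each line separately. The CAL27 list held 679 regions on chromosome 9 and the SCC13 list 236. Of the 722 distinct regions, 486 were CAL27-only, 43 were SCC13-only and 193 were shared, the last with the same start and end in each list. CAL27-only regions thus made up 67.3% of the chromosome's regions (exact 95% binomial interval 63.8 to 70.7), against 61.2% (60.4 to 61.9) on all other chromosomes. SCC13-only regions made up 5.96% (4.34 to 7.94), against 9.59% (9.12 to 10.1). These intervals cover counting error only. Earlier results on chromosome shares were known when the chromosome was picked, so these shares describe it and were not tested.

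Both lists were denser on the long arm. CAL27 had 141 regions on 9p, or 2.88 per Mb of arm, and 538 on 9q, or 5.83 per Mb. SCC13 had 57 on 9p, or 1.16 per Mb, and 179 on 9q, or 1.94 per Mb. Among the 41 arms with at least 20 regions, 9p ranked 35th in CAL27 density and 39th in SCC13 density, whereas 9q ranked 10th and 24th. The short arm was therefore sparse in both lines, and the long arm stood higher in the order for CAL27 than for SCC13. Arm lengths included the region-free centre of the chromosome.

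The centre of the chromosome held no p63 region in either line. The last region of the short arm was a CAL27-only region of 531 bp at chr9:40633323-40633853, 8.37 Mb before the arm boundary. The first of the long arm was a shared region of 795 bp at chr9:67292965-67293759, 18.3 Mb past it. Between them lay 26.7 Mb with no listed region, so that the exact position of the boundary put no region on one arm or the other. This stretch holds the centromere and the large heterochromatic block of 9q12, which consists of repeats.

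The long arm had a somewhat larger CAL27-only share and a smaller SCC13-only share than the short arm, with overlapping intervals. On 9p, 99 regions were CAL27-only, 15 SCC13-only and 42 shared. On 9q the counts were 387, 28 and 151. CAL27-only regions were 63.5% of the short arm (55.4 to 71.0) and 68.4% of the long arm (64.4 to 72.2), and SCC13-only regions were 9.62% (5.48 to 15.4) and 4.95% (3.31 to 7.07). The ratio of CAL27-only to SCC13-only regions was thus 6.60 on 9p, near the 6.52 of all chromosomes, and 13.8 on 9q. On 9q this ratio was close to the 13.7 of 3q, and below the 16.2 of 22q and the 15.25 of 18p. By CAL27-only share, 9q ranked 3rd of the 41 arms, behind 18p and 3q, and 9p ranked 12th.

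**Figure D1:**
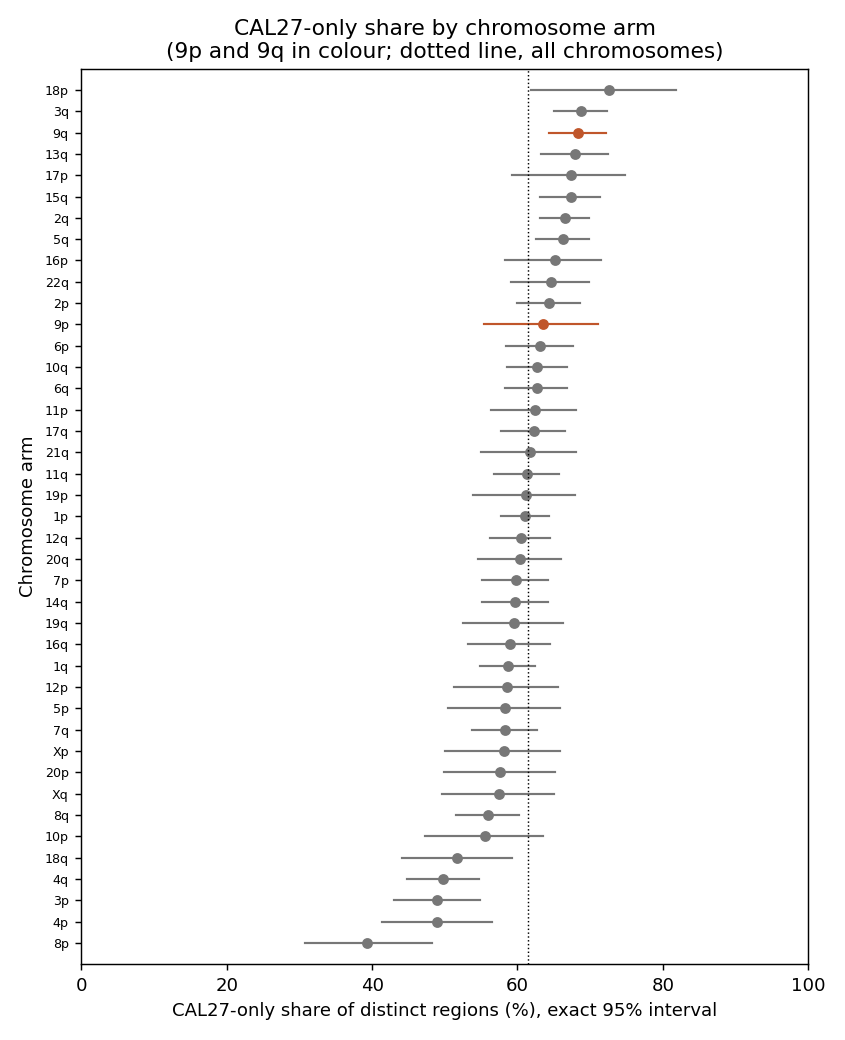
CAL27-only share of the distinct p63 regions of each chromosome arm with at least 20 regions (x axis, percent; bars, exact 95% binomial intervals; y axis, arms in order of share). Arm 9q, at 68.4%, stands 3rd of 41 and 9p, at 63.5%, stands 12th, and their intervals overlap.

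The difference between the arms in line-only regions did not pass the test after adjustment. CAL27-only regions were 86.8% of the 114 line-only regions of 9p and 93.3% of the 415 of 9q, an odds ratio of 2.09 (exact 95% interval 0.997 to 4.23). Fisher's exact test, two-sided, gave p = 0.0332, and 0.120 after Benjamini-Hochberg adjustment over the 18 chromosomes with at least 20 line-only regions on each arm. Of these 18 chromosomes, 4, or 22.2%, passed at an adjusted 0.05: chromosomes 3, 5, 8 and 18. Line-only regions were counted because no region enters both counts. The test takes each region as a separate observation, and its p-values are too small to the extent that neighbouring regions go together. It also uses the same classes whose chromosome shares were known when the chromosome was picked, so its p-values for chromosome 9 are descriptive.

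Sharing, seen from CAL27, was nearly the same on both arms. Of the CAL27 regions, 29.8% were shared on 9p (22.4 to 38.1) and 28.1% on 9q (24.3 to 32.1), an odds ratio of 0.920 (exact 95% interval 0.603 to 1.42). By Fisher's exact test the adjusted p was 1. The interval leaves room for odds on 9q between 0.603 and 1.42 times those on 9p. This test has the same limits as that of line-only regions. Arms differed in this share on 1 of the 18 chromosomes, or 5.56%. Of the SCC13 regions, 73.7% were shared on 9p (60.3 to 84.5) and 84.4% on 9q (78.2 to 89.3).

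Regions were wider on the long arm, a measure that played no part in choosing them. The median region was 710 bp on 9p and 820 bp on 9q. Of the 9q regions 55.5% (314 of 566) were wider than 773 bp, the median of all distinct regions, against 42.9% (67 of 156) on 9p. The odds ratio was 1.65 (exact 95% interval 1.14 to 2.41), with p = 0.00651 and an adjusted p of 0.0195 by two-sided Fisher's exact test. Arms differed in this share on 7 of the 18 chromosomes, or 38.9%, so a difference between arms was common. Its direction varied, with the larger share on the long arm of chromosomes 3, 8, 9 and 10 and on the short arm of 4, 11 and 18. All tests of width also take each region as a separate observation. Their p-values are too small to the extent that neighbouring regions go together. At 1500 bp or wider there were 2 regions on 9p and 46 on 9q, or 1.28% and 8.13%. The odds ratio was 6.80 (exact interval 1.74 to 58.5), with an adjusted p of 0.00556 by Fisher's exact test. This ratio was larger than at 773 bp, with overlapping intervals, while the gap was smaller, at 6.85 against 12.5 percentage points.

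The width difference passed the test in CAL27-only regions and did not pass it in shared regions. CAL27-only regions had a median width of 667 bp on 9p (quartiles 545 and 846) and 774 bp on 9q (616 and 1041), and 35.4% and 50.1% were wider than 773 bp (Fisher's exact test, adjusted p = 0.0340). Shared regions had medians of 878 bp and 966 bp, and 64.3% and 73.5% were wider, an odds ratio of 1.54 (exact 95% interval 0.687 to 3.36), with an adjusted p of 0.535 by Fisher's exact test. The 15 SCC13-only regions of 9p had a median of 667 bp and the 28 of 9q 592 bp, and none of either reached 1500 bp. Whether the arms differed more in one class than in another was not tested. The lists give no score, so how width relates to the strength of binding could not be determined here.

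**Figure D2:**
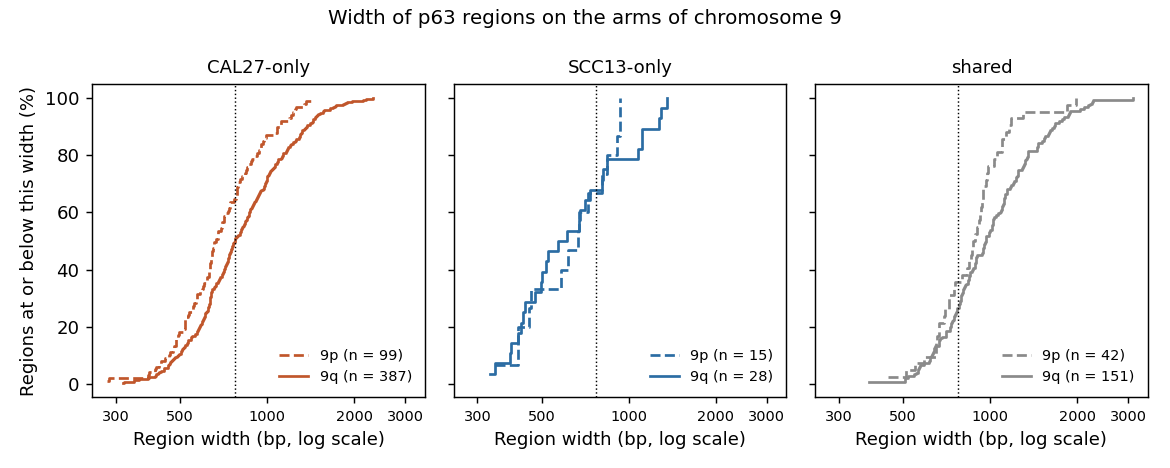
Cumulative percentage of chromosome 9 p63 regions (y axis) at or below a given width (x axis, bp, log scale), for each class, with 9p dashed, 9q solid and the median of all distinct regions, 773 bp, dotted. The 9q curve of CAL27-only regions lies right of the 9p curve over most of the range, with medians of 774 and 667 bp.

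The widest regions of the chromosome lay on 9q. The widest was shared, 3113 bp at chr9:138999280-139002392 in 9q34.3, the band of NOTCH1. The next shared regions of 9q measured 2274 bp, at chr9:119598776-119601049 in 9q33.1, the band of the matrix glycoprotein gene TNC, and 2252 bp, at chr9:74397059-74399310 in 9q21.13. The 3 widest CAL27-only regions of 9q measured 2318 bp at chr9:117038173-117040490 in 9q32, 2198 bp at chr9:87278285-87280482 in 9q21.33 and 2195 bp at chr9:135934846-135937040 in 9q34.2. The widest SCC13-only regions of 9q were smaller, at 1358 bp (chr9:114567901-114569258), 1290 bp (chr9:93823068-93824357) and 1272 bp (chr9:85650435-85651706).

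On 9p the 2 widest regions were shared. They measured 1984 bp at chr9:20319500-20321483 in 9p21.3 and 1847 bp at chr9:38207749-38209595 in 9p13.2. The next shared region of 9p, of 1299 bp at chr9:23769384-23770682 in 9p21.3, was narrower than 3 CAL27-only regions. CAL27-only regions of 9p reached 1431 bp (chr9:33414616-33416046) and 1338 bp (chr9:33447876-33449213), both in 9p13.3, with one of 1356 bp between them in rank (chr9:23674037-23675392). SCC13-only regions of 9p reached 935 bp (chr9:20726853-20727787), 931 bp (chr9:17380030-17380960) and 914 bp (chr9:37943143-37944056). No line-only region of 9p was thus as wide as 1500 bp.

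In 5 Mb bins, p63 regions were most crowded toward the end of the long arm. The bin from 130 to 135 Mb held 75 regions, 53 of them CAL27-only, 3 SCC13-only and 19 shared. Those 53 were the most CAL27-only regions in any 5 Mb bin of the genome. The next bin, from 135 to 140 Mb, held 66, with 41 CAL27-only, 2 SCC13-only and 23 shared. On 9p the fullest bin was the first, from 0 to 5 Mb, with 36 regions. Apart from the nearly empty bins beside the centre, regions were fewest from 5 to 15 Mb, with 8 and 6 in the 2 bins, a stretch covering 9p23.

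The CAL27-only share varied along both arms. Among bins with at least 10 regions it ranged from 38.9% to 83.3% over 6 bins of 9p and from 58.3% to 83.3% over 15 bins of 9q. It reached 80% or more in 4 of these 21 bins, against 6.04% of the 513 such bins of all chromosomes. These 4 were 0 to 5 Mb (30 of 36 regions, 83.3%, interval 67.2 to 93.6), 85 to 90 Mb (33 of 40, 82.5%, 67.2 to 92.7), 100 to 105 Mb (15 of 18, 83.3%, 58.6 to 96.4) and 125 to 130 Mb (30 of 36, 83.3%, 67.2 to 93.6). The bin from 85 to 90 Mb holds the whole run of 25 CAL27-only regions described below, which was selected on its length. Its share is thus no separate observation, and the count of bins was not tested. With bins shifted by 2.5 Mb, 2 bins reached 80%, so the count depends on where bins start. The lowest shares on 9q were 58.3% at 70 to 75 Mb and 59.3% at 115 to 120 Mb, where 20 of 54 regions were shared.

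**Figure D3:**
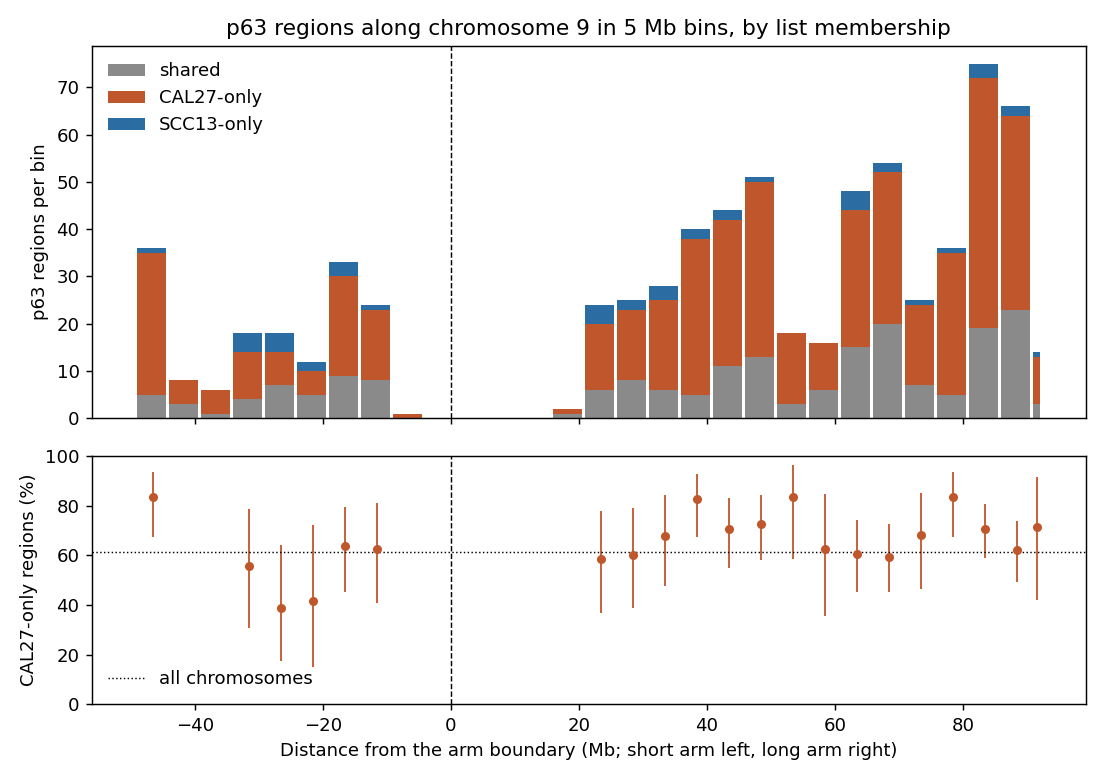
Distinct p63 regions of chromosome 9 per 5 Mb bin by class (top, stacked counts) and CAL27-only share of bins with at least 10 regions (bottom, percent, exact 95% binomial intervals), against distance from the arm boundary in Mb; the dotted line is the share on all chromosomes. Bins near the boundary are empty or nearly so, and the low CAL27-only shares of 38.9% and 41.7% lie in the middle of the short arm.

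The middle of the short arm held most of its SCC13-only regions, in a stretch singled out after its values were seen and not tested. From 15 to 30 Mb, 22 regions were CAL27-only, 10 SCC13-only and 16 shared, so that 10 of the 15 SCC13-only regions of 9p lay there. The CAL27-only share was 55.6% (interval 30.8 to 78.5), 38.9% (17.3 to 64.3) and 41.7% (15.2 to 72.3) in its 3 bins. Of these intervals, only that of the bin from 20 to 25 Mb lay below the 67.3% of the whole chromosome. Band 9p21.3, which holds CDKN2A and CDKN2B, had 7 CAL27-only, 5 SCC13-only and 7 shared regions. The longest run of neighbouring shared regions on 9p was also in this band, with 3 regions of 904, 443 and 665 bp from 22033080 to 22107624. An SCC13-only region of 346 bp at chr9:21992563-21992908 preceded it.

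At the end of the short arm nearly all regions were CAL27-only, in a stretch singled out after its values were seen and not tested. It lies mostly in the bin from 0 to 5 Mb counted above. In 9p24.3, the band of the cytoskeletal regulator gene KANK1, 17 of 18 regions were CAL27-only and none was SCC13-only. The first 15 regions of the chromosome, from 469732 to 1574990, were all CAL27-only and formed the longest CAL27-only run of 9p. Their widths ran from 284 to 1244 bp.

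SCC13-only regions were rare and scattered. They mostly stood alone over all chromosomes as well, where 976 of 1170 runs of this class held a single region. All 15 on 9p stood alone, with no SCC13-only neighbour next in order. On 9q 22 stood alone and 6 formed 3 pairs, at 72874061 to 73357861, 75964344 to 76300201 and 82859710 to 83348280, all in 9q21. Farther along, no SCC13-only region was listed from 95090288 to 110242518, a stretch of 15.2 Mb with 62 CAL27-only and 23 shared regions. It was picked as the longest such stretch of 9q and was not tested. That stretch includes 9q22.32 and 9q22.33, the bands of PTCH1 and of the TGF-beta receptor gene TGFBR1. The longest such stretch on 9p was 11.6 Mb long, with 10 CAL27-only and 6 shared regions.

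The longest run of consecutive CAL27-only regions in the genome lay on 9q, in band 9q21.33. It held 25 regions from 86915126 to 89285667, over 2.37 Mb or 10.5 regions per Mb, and was longest of 3480 CAL27-only runs. The next were 21 regions over 5111 kb on chromosome 14, 20 over 2913 kb on chromosome 16 and 19 over 1402 kb on chromosome 5. The run was chosen for this length, so its rank is a description. Neighbouring genes of this part of the chromosome, in RefSeq's order on GRCh38.p14, are SLC28A3, NTRK2, AGTPBP1, NAA35, GOLM1, C9orf153, ISCA1, TUT7, GAS1 and DAPK1. NTRK2 encodes the neurotrophin receptor TrkB, GAS1 a Hedgehog co-receptor, and DAPK1 a death-associated kinase. Positions of these genes on hg19 were not used, so which regions of the run lie in or near which gene was not determined.

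Shared regions ended the run on both sides. Before it lay shared regions of 1124 bp (chr9:86752463-86753586) and 1048 bp (chr9:86853477-86854524), and after it one of 1210 bp (chr9:89598002-89599211). Between the last 2 of these, SCC13 had no listed region for 2.74 Mb. By length this stretch ranked 126th of the 5863 between neighbouring SCC13 regions of all chromosomes. Chromosome 9 had longer ones, such as 6.01 Mb from 101011693 with 11 CAL27-only regions and 3.47 Mb from 76300202 with 12. The run was selected for its number of regions without an SCC13 region among them, so these values only describe it.

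Regions of the run were unevenly spaced, with 16 of the 25 in its first 1 Mb. It began with a single 630 bp region at 86915126. After 256 kb came 3 regions close together, of 998 bp at 87171307, 513 bp at 87182711 and 679 bp at 87212058. The widest of the run, 2198 bp at chr9:87278285-87280482, was followed 7.26 kb on by one of 973 bp at 87286157. This 2198 bp region was also the 2nd widest of all 387 CAL27-only regions of 9q.

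The middle of this dense part held 8 regions. They measured 806 bp at 87364900, 629 bp at 87387762, 813 bp at 87444586, 1009 bp at 87466632 and 1160 bp at 87486694, then 678 bp at 87583892, 1018 bp at 87585316 and 1136 bp at 87604762. The pair at 87583892 and 87585316 was the closest of the run, with midpoints 1.59 kb apart. Regions of 1040 bp at 87723560 and 545 bp at 87827023 closed the dense part.

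The second part of the run was sparse. A 430 bp region at 88102764, the narrowest, stood alone, and the widest gap of the run, 470 kb, separated it from a region of 715 bp at 88572171. Regions of 939 bp at 88741670 and 718 bp at 88772036 followed. The last 5 measured 1606 bp at 89020330, 631 bp at 89106191, 459 bp at 89177596, 462 bp at 89226265 and 1433 bp at 89284235. The median gap between midpoints over the whole run was 62.7 kb, close to the 61.6 kb of 9q.

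In width the regions of the run resembled the other CAL27-only regions of 9q. Their median was 806 bp (range 430 to 2198), against 774 bp in the other 362, and 13 of the 25 were wider than that median. The nearest SCC13 region lay at a median distance of 577 kb, up to 1249 kb, a distance that follows from how the run was selected. Over all CAL27-only regions of an arm, the nearest SCC13 region lay at a median of 106 kb on 9q and 195 kb on 9p. The run made up 6.46% of the CAL27-only regions of 9q. Without it, 66.9% of the 9q regions were CAL27-only (interval 62.8 to 70.9), and the ratio of CAL27-only to SCC13-only regions was 12.9.

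**Figure D4:**
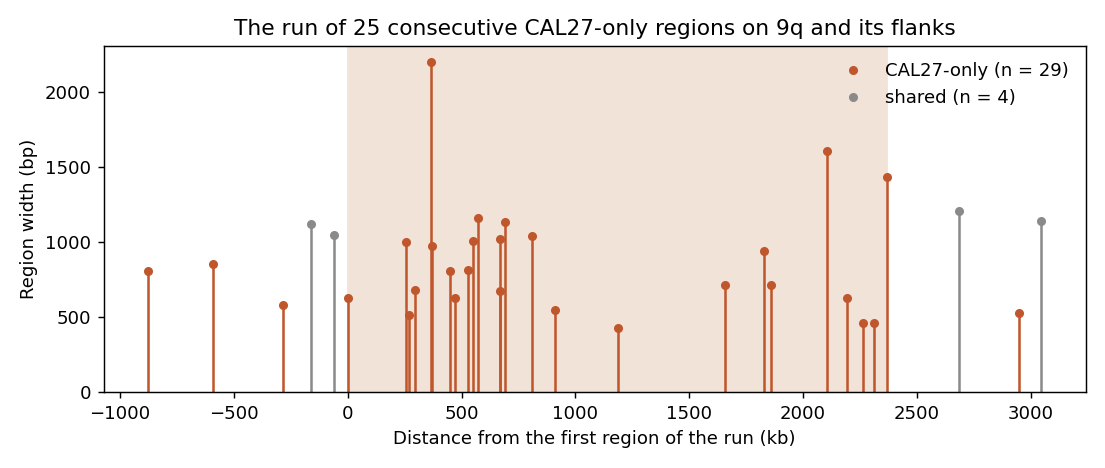
Width (y axis, bp) of each p63 region by distance of its midpoint from the first region of the run (x axis, kb), with the run of 25 CAL27-only regions shaded and 1 Mb shown on each side. No SCC13-only region lies in the window, and the 4 shared regions all stand outside the shaded run.

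Other long CAL27-only runs lay on the chromosome as well. Of the 65 runs of 10 or more CAL27-only regions in the genome, 8 were on chromosome 9, 1 of them on 9p and 7 on 9q. They held 23.3% of the chromosome's CAL27-only regions (113 of 486), against 8.45% on all chromosomes. The 113 include the 25 of the run selected on its length, so this contrast is in part set by that choice. After the 25, those of 9q held 14 regions from 96033155 to 97688841 (9q22.31 to 9q22.32), 13 from 127625782 to 129516056 in 9q33.3, the band of the chaperone gene HSPA5, and 12 from 92787839 to 93683910 in 9q22.2, the band of the kinase gene SYK. Another 12 lay from 76484196 to 79134481 in 9q21.13. The remaining pair held 11 each, over 422 kb from 134065408 in 9q34.13 and over 3624 kb from 101544295. These runs thus differed widely in density, from 3.04 to 26.1 regions per Mb. The number of long runs was not tested, and the CAL27-only share, itself larger on chromosome 9, bears on it directly.

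Runs of shared regions were short, as over all chromosomes, where 2178 of 3102 held a single region. The longest of 9q held 4 regions, of 1143, 1582, 855 and 954 bp, from 136738732 to 137012622 in 9q34.2, the band of the guanine exchange factor gene VAV2. A further 3 shared regions, of 1870, 1025 and 736 bp, lay from 117549362 to 117568254 in 9q32, the band of the cytokine gene TNFSF15, and an SCC13-only region of 672 bp followed at 117569861.

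Close groups of regions were mostly on 9q, the arm that held most of the regions. With midpoints joined within 10 kb, 11 groups of 3 or more regions were found, 1 on 9p and 10 on 9q. They held 1.92% of the 9p regions and 5.65% of the 9q regions, against 5.42% over all chromosomes. The 10 groups of 9q contained 17 CAL27-only, 13 shared and 2 SCC13-only regions, and 9 of them included a shared region. Over all chromosomes the 258 groups contained 509 CAL27-only, 274 shared and 44 SCC13-only regions, and 186 of them included a shared region. Only 2 groups held 4 regions, each with 3 CAL27-only and 1 shared. One lay at chr9:117035478-117051462 in 9q32, the band of the fibrillar collagen gene COL27A1, and included the 2318 bp region. The other lay at chr9:135996012-136011063 in 9q34.2 and included CAL27-only regions of 2137, 646 and 983 bp and a shared one of 1468 bp.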

How the data were processed

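Bowtie2, SAMtools 1.8 and MACS2 were used on hg19, per the submitters' processing notes, which give no roles or order. Cells were fixed in 1% formaldehyde for 10 min and 10 ug of p63 antibody was used, per the labels. The authors deposited 1 list per line, with chromosome, start and end and no score. How peaks were thresholded and replicates combined is not given in the sources used here. Depth is unknown.

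Regions overlapping by at least 1 bp were called shared, and all such pairs had the same start and end. Starts are counted from 1. Bands and arm ends of hg19 came from the R package circlize 0.4.16 (R 4.3.3). Arms were compared by Fisher's exact test on 18 chromosomes with Benjamini-Hochberg adjustment at 0.05, after a test on simulated counts. Intervals of shares are exact Clopper-Pearson at 95%. Regions were named by rule: the 3 widest per class and arm, the longest runs, groups of 4 or more, extreme bins and those nearest the boundary; others were chosen after their values were seen. Members, lists and tests were chosen with earlier results of these data known. Sequences and gene models of hg19 were not used here. Python 3.11.15, scipy 1.17.1 and pandas 2.3.3 were used.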

Additional observations from a re-analysis of the deposited data

How the results depend on the processing

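No paired analysis was possible because each line has 1 list for both replicates; leaving out a replicate was likewise not possible. The arm differences in line-only regions and in sharing kept their direction and stayed short of the threshold under all 5 and 4 alternatives (Fisher's exact test, adjusted p from 0.120 to 0.217 and from 0.631 to 1). Placing regions by their start could move none between the arms, given the empty centre, and left both sets of counts unchanged. Calling regions shared when midpoints lay within 500 bp also left the line-only counts unchanged. Neither alternative thus adds a check. The larger share of wide regions on 9q, 12.5 percentage points, passed under 4 of 5 alternatives and fell short for shared regions alone, at 9.22 points (Fisher's exact test, adjusted p = 0.535), where fewer regions were compared. Shared regions alone, neighbours of one class counted once and omission of the longest run were added for width after the values were seen. Bins at 80% or more numbered 4, and 2 with bins shifted by 2.5 Mb. The longest run had 25 regions, 26 when 1 region listed in SCC13 was passed over, and 13 among regions wider than the median, where a run on chromosome 3 was as long. Groups numbered 11, and 33 when joined within 20 kb or 3 within 5 kb, as the joining rule dictates. Depth was unknown, so absence from a list does not show absence of binding.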
